A study of Mus musculus with 12 samples.

Results

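Binding of estrogen receptor α (ERα, the product of Esr1) was compared with that of the progesterone receptor (PR, the product of Pgr) on the chromatin of mouse mammary glands that carried the ERα mutation Y541S. The comparison rests on 4 ChIP-seq libraries, 2 with an antibody against ERα and 2 with an antibody against PR, out of 12 samples in the series. All mice were 8 weeks old and had received implants of estradiol and progesterone, and the glands were taken 4 days after implantation. No library without added hormone was among them, so what the hormones themselves did cannot be read from these libraries. The same 2 receptors in glands labelled WT, also with 2 libraries each and the same hormones, were used to look up regions and for the comparisons of Y541S with WT glands given below, and 4 further samples, with D542G, were left out and not analysed here. The labels name whole mammary glands, the series title names luminal cells, and the number of animals behind a replicate and the zygosity of Y541S were not given. Binding in whole glands can come from epithelium, fat, stroma or immune cells, and the number of cells that hold a receptor cannot be told apart from the binding per cell.

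Regions were formed by merging the peaks of the 4 Y541S lists wherever they overlapped by at least 1 bp, which gave 239532 regions. A region with a peak in both ERα libraries and in no PR library is called ERα-only, and there were 9103 (3.80%). A region with a peak in both PR libraries and in no ERα library is called PR-only, and there were 26511 (11.1%). A region with a peak in all 4 libraries is called shared, and there were 26815 (11.2%). The rest had other patterns, of which the most frequent was a peak in a single ERα library, with 90610 regions. Because the lists had different depths and lengths, every count was repeated with the 20000 strongest peaks of each list by the deposited −log10 p, called the equal lists.

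ERα and PR are nuclear receptors, proteins that bind steroid hormone and then DNA. ERα binds an inverted repeat, the estrogen response element, and PR binds a different inverted repeat that the glucocorticoid receptor also recognises. In the mammary gland, estradiol acting through ERα induces Pgr, and both receptors sit together in a subset of luminal cells that signal to their neighbours through secreted factors such as amphiregulin, RANKL and WNT4. Both receptors are also known to be recruited to DNA through other proteins, including forkhead and AP-1 factors.

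As examples, 8 promoters whose named element lay inside a region of a class are printed. They were picked for holding the element, so they do not show which sequence was typical of a class. Each is the 250 bases before a coding start site, 5′ to 3′ in the direction of the gene, from RefSeq (GRCm38.p6), with the element in capitals. The elements searched, on both strands, were GGTCANNNTGACC (estrogen response element), GNACANNNTGTNC (progesterone and glucocorticoid response element) and CCGGAAG (the motif of ETS factors, which bind many promoters). Lmntd1 shows an estrogen response element under an ERα-only region of the whole lists. Snx12 and Rhot2 show ETS motifs under the 2 best-ranked such promoters among the ERα-only regions of the equal lists. Abcb5, Fam107a and Gpr119 show the PR element under PR-only regions, and Cfap298 and Map3k6 the same element under shared regions.
Lmntd1, chr6:145434926-145435175, minus strand: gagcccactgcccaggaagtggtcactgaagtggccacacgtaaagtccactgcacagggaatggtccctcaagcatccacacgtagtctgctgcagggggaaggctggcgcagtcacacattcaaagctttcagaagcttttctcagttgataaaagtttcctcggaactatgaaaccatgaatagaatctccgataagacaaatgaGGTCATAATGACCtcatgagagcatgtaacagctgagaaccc
Snx12, chrX:101222564-101222813, minus strand: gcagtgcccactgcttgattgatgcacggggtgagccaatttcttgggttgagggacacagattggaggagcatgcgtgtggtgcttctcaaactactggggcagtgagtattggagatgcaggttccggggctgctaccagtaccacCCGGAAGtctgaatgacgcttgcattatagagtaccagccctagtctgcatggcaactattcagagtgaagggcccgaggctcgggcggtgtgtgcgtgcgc
Rhot2, chr17:25844526-25844775, minus strand: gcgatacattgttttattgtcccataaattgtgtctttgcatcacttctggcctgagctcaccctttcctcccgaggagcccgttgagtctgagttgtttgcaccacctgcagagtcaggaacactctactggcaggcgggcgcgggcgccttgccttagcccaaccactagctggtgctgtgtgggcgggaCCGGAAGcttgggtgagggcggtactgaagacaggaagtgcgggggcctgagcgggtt
Abcb5, chr12:118966422-118966671, minus strand: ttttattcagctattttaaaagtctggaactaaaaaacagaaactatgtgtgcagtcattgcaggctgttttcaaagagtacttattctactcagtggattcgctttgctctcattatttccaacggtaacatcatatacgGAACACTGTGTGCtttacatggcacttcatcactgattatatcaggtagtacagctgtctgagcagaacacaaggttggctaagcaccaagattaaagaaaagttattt
Fam107a, chr14:8309778-8310027, minus strand: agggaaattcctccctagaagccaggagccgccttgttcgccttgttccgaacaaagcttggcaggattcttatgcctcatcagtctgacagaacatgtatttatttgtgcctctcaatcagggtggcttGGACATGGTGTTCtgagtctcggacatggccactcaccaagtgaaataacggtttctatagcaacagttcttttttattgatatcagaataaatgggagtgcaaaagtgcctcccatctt
Gpr119, chrX:48674479-48674728, minus strand: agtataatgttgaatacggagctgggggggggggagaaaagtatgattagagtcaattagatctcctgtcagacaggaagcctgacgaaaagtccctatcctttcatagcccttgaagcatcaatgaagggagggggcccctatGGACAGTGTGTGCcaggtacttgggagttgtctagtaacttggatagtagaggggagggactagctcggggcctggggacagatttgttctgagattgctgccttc
Cfap298, chr16:90934850-90935099, minus strand: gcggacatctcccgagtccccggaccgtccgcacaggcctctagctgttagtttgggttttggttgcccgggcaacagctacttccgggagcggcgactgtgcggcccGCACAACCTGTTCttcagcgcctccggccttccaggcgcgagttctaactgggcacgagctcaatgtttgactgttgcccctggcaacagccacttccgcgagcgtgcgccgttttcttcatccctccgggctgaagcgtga
Map3k6, chr4:133240568-133240817, plus strand: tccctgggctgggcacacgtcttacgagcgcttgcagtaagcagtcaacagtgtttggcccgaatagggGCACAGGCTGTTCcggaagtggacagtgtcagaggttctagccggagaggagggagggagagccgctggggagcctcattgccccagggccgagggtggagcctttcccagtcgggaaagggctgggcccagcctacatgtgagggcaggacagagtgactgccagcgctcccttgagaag

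The PR-only region over the Abcb5 promoter ranked 3985 and 1463 in PR replicates 1 and 2, with a fold enrichment of 18.7 in each. Its element began 109 bases before the start site. Neither ERα library had a peak there, and both WT PR libraries did, with fold enrichments of 8.71 and 11.9. Over the Map3k6 promoter the shared region ranked 669 and 517 for PR and 6190 and 4269 for ERα. PR was thus far ahead of ERα in rank, with fold enrichments of 16.6 and 13.3 against 5.43 and 5.48. The Snx12 promoter had the opposite order, with ERα ranks of 846 and 223 (fold 14.1 and 17.1) and whole-list PR ranks of 33055 and 23456 (fold 7.32 and 6.53). It counted as ERα-only in the equal lists and had PR peaks in the whole lists. The Lmntd1 region was weaker, at ERα ranks of 30608 and 12671 (fold 3.65 and 4.91), without any PR peak in Y541S or WT glands.

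Library facts that bear on these numbers were as follows. The ERα lists held 106926 and 105612 peaks and the PR lists 113695 and 101382, or 106269 ± 929 and 107538 ± 8707 (SD, n = 2). On the log2 scale ERα minus PR was -0.01 (SE 0.08, exact two-sided permutation p = 1.0), and 2 against 2 libraries cannot give a p below 0.333. Background coverage, recovered from the deposited fold and −log10 p as a measure of depth, came to 2.29 and 1.72 in the ERα libraries, against 2.45 and 1.35 with the PR antibody. The median −log10 p of a peak was 4.58 and 4.19 for ERα but 9.82 and 6.71 for PR, so PR peaks lay further above the lists' common floor of 2.00. The peak at place 20000 had a −log10 p of 8.39, 6.92, 31.4 and 15.2 in ERα replicates 1 and 2 and PR replicates 1 and 2, and the next peak had the same value to 3 digits. Replicates overlapped more for PR than for ERα in the whole lists. Of the peaks of PR replicates 1 and 2, 63.3% and 71.0% overlapped the other PR list, whereas 41.0% and 41.3% of the ERα peaks overlapped the other ERα list. The peaks of ERα replicate 1 met those of PR replicates 1 and 2 more often, at 45.2% and 43.3%, and those of ERα replicate 2 less often, at 37.5% and 37.4%. Among the strongest peaks, 60.4% of the peaks of either ERα library overlapped the other, against 17.9% to 37.7% with a PR library.

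How far the receptors shared regions depended on how a receptor's regions were defined. Of 42802 regions in both ERα libraries, 62.6% were in both PR libraries, and of 70573 regions in both PR libraries, 38.0% were in both ERα libraries. The order turned when a single ERα library stood for ERα: without ERα replicate 1 the shares were 31.0% and 45.4%, and without ERα replicate 2 they were 37.1% and 54.6%. In the equal lists these shares were 20.6% of 12019 and 17.3% of 14272, so the overlap was small among the strongest peaks of each receptor. There the classes numbered 6452 ERα-only, 9137 PR-only and 2473 shared of 43825 regions. Both shares have the same shared regions as their numerator, so they differ through the number of regions found in both libraries of each receptor. Most ERα-only regions of the equal lists did hold PR signal further down: 4393 (68.1%, 95% Wilson interval 66.9 to 69.2) had a peak in both whole PR lists, and 1189 (18.4%) in neither. Of the equal-list PR-only regions, 1933 (21.2%, 20.3 to 22.0) had a peak in both whole ERα lists and 3621 (39.6%) in neither. These intervals cover counting error over regions and not the spread between libraries.

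**Figure D1:**
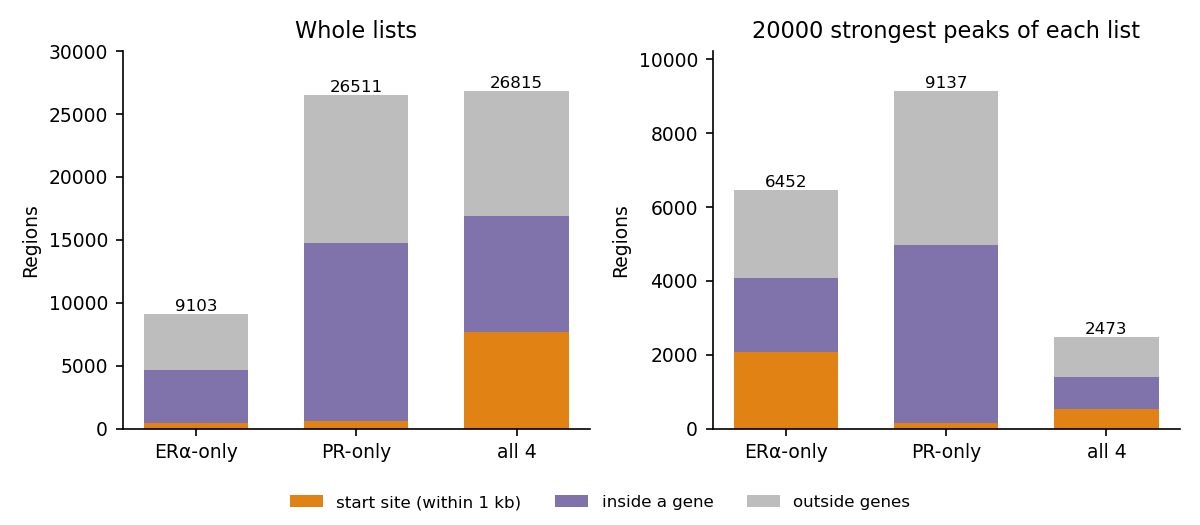
Number of regions (vertical axis) that were ERα-only, PR-only or in all 4 Y541S libraries, from the whole lists (left) and from the 20000 strongest peaks of each list (right), divided by position relative to coding genes. Shared regions held most of the start sites in the whole lists, and ERα-only regions did in the equal lists. Numbers above the bars are region counts, and the 2 panels have different vertical scales. Shares were measured without chromosome 18 and applied to all regions.

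The strongest ERα peaks lay at gene start sites far more often than the strongest PR peaks. A start site here is the annotated start of a coding gene, a peak is at it when its summit is within 1 kb, and chromosome 18 was not used for positions. In the whole lists the ERα libraries had 11.7% and 11.7% of their peaks at start sites, against 10.1% and 11.8% in the PR libraries. The difference was 0.736 percentage points (SE 0.852, exact two-sided permutation p = 1.0), and the groups overlapped. Among the 20000 strongest peaks ERα had 26.9% and 32.5% at start sites, whereas PR had 4.46% and 16.7%. Every ERα library was above every PR library, by 19.1 percentage points on average (SE 6.76, exact permutation p = 0.333, the smallest possible), although the PR replicates also lay far apart. WT glands gave 23.1% and 28.4% for ERα, against 7.55% and 16.4% for PR. Over both genotypes, with the receptor permuted within genotype, the mean difference was 16.4 points (exact permutation p = 0.0556, the smallest that 36 arrangements allow). The genotypes were not shown to differ in this, with a Y541S minus WT difference of 5.31 points (exact permutation p = 0.722).

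Along the ranked lists the receptors followed opposite courses at first. In the strongest decile of each list 28.1% and 41.1% of ERα peaks were at start sites, and in the weakest decile 5.20% and 2.30%. For PR the strongest decile had the low shares of 2.77% and 10.6%. PR replicate 1 reached its maximum of 16.3% in the fourth decile and PR replicate 2 its maximum of 23.1% in the second. In the weakest decile the order was the reverse of the strongest, with both PR libraries, at 9.32% and 7.40%, above both ERα libraries. In WT glands the PR course was alike, at 2.91% and 9.38% in the strongest decile. WT ERα replicate 1 departed from the other ERα libraries, with 15.6% in its strongest decile and 29.7% in the next.

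**Figure D2:**
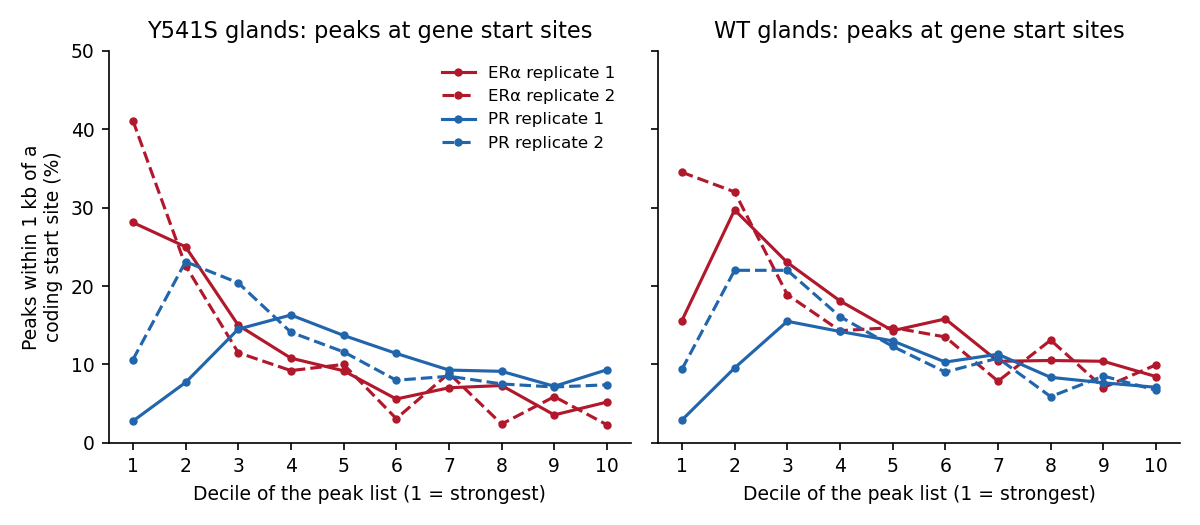
Percent of peaks whose summit was within 1 kb of a coding start site (vertical axis) in each decile of the ranked peak list (horizontal axis, 1 = strongest) for Y541S (left) and WT (right) glands, with 1 line per library. In Y541S the ERα lines start at 28.1% and 41.1% and fall, whereas the PR lines start at 2.77% and 10.6% and rise before they fall.

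Positions of the classes followed the same split. In the whole lists 28.6% (95% Wilson interval 28.1 to 29.2) of shared regions were at start sites, against 4.75% (4.32 to 5.21) of ERα-only and 2.38% (2.20 to 2.57) of PR-only regions. Regions with peaks of only 1 receptor were thus mostly far from starts, with medians of 41.6 kb for ERα-only, 40.8 kb for PR-only and 19.3 kb for shared regions. Inside genes but not at starts lay 46.6% of ERα-only, 53.3% of PR-only and 34.3% of shared regions. Among the strongest peaks, the order changed: 32.0% (30.9 to 33.2) of ERα-only, 1.69% (1.44 to 1.98) of PR-only and 21.2% (19.7 to 22.9) of shared regions were at start sites. The ERα-only start sites of the equal lists were nearly all PR-bound at lower rank, since 96.2% and 97.5% of those 2006 regions had a peak in PR replicates 1 and 2, at median places of 40.7% and 28.4% down the PR lists. Where an equal-list ERα-only region had a peak in both whole PR lists, 44.7% were at start sites, and where it had none, 2.97% were.

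ERα peaks were narrower than PR peaks in Y541S glands. Median peak widths were 264 and 251 bp for ERα and 370 and 345 bp for PR, a difference of -100 bp (SE 14.1, exact two-sided permutation p = 0.333, the smallest possible) without overlap between the groups. Among the 20000 strongest peaks they were 484 and 495 bp against 548 and 546 bp. The narrowest peak of a list was 180, 185, 200 and 205 bp in the same library order, so the least width that a list could hold also differed by library, and its part in the difference was not tested. In WT glands the groups overlapped, with medians of 262 and 242 bp for ERα and 260 and 312 bp for PR. The WT difference was -34.0 bp (exact two-sided permutation p = 0.667). Among the 20000 strongest WT peaks the medians were 427 and 359 bp against 397 and 519 bp. Widths of merged Y541S regions had medians of 399 bp for ERα-only, 439 bp for PR-only and 769 bp for shared regions. A shared region joins peaks of 4 libraries and the other classes join peaks of 2, so merging alone can make shared regions wider. By median place, shared regions held the stronger peaks in both ERα libraries and in PR replicate 2. In PR replicate 1 the PR-only and shared regions were nearly alike. ERα-only regions lay at median places of 40.5% and 39.4% down the ERα lists, while shared regions lay at 18.6% and 17.6%. PR-only regions lay at 35.1% and 45.0% down the PR lists and shared regions at 33.5% and 26.4%.

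Within the 26815 shared regions the receptors ranked the same sites differently. Ranked 1 to 26815 in each library, 8829 regions (32.9%) had both ERα ranks ahead of both PR ranks, and 7344 (27.4%) had both PR ranks ahead of both ERα ranks. Start sites made up 40.2% (39.2 to 41.2) of the ERα-leaning regions and 8.46% (7.83 to 9.13) of the PR-leaning ones. Median fold enrichments in the ERα-leaning regions were 5.20 and 5.24 for ERα, against 4.68 and 4.84 for PR. In the PR-leaning regions PR had 10.5 and 8.38, against 3.76 and 3.58 for ERα. As a description over regions that share libraries, Spearman's rho of the ranks was 0.77 between the PR replicates, 0.59 between the ERα replicates and 0.06 to 0.33 between an ERα and a PR library. At start sites the 4 ERα and PR pairs reached 0.39 to 0.48, and elsewhere 0.04 to 0.28. Summits within these regions lay close together. The median distance was 76.0 to 90.0 bp between an ERα and a PR library, 83.0 bp between the ERα replicates and 52.0 bp between the PR replicates.

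**Figure D3:**
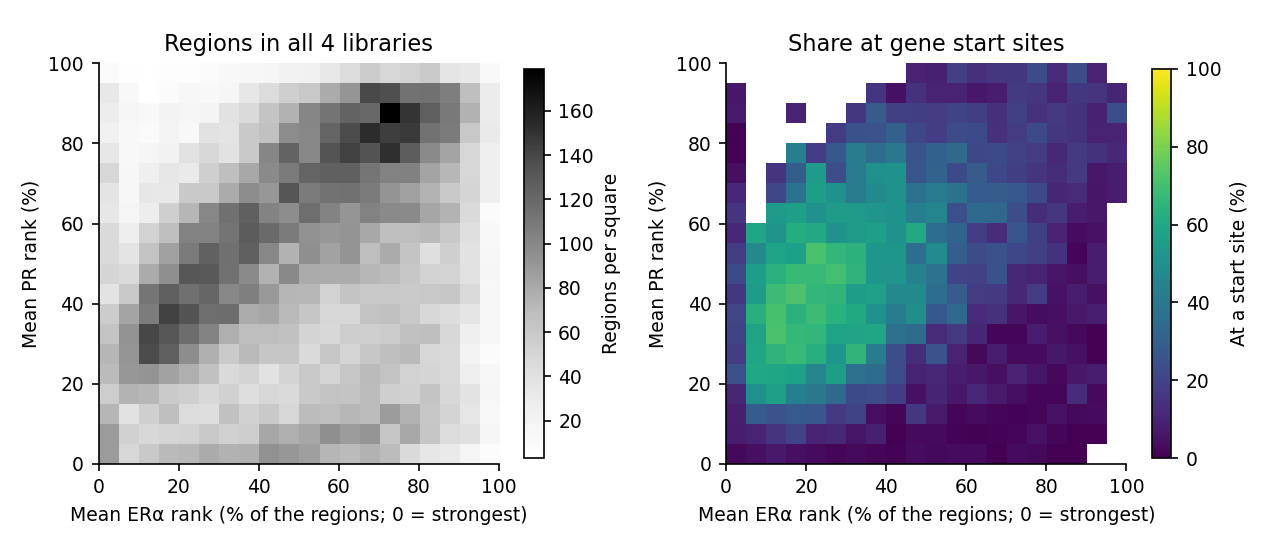
The 26815 shared regions by their mean ERα rank (horizontal axis) and mean PR rank (vertical axis), each as a percent of these regions with 0 the strongest. The left panel gives the number of regions in each square, and the right panel the percent within 1 kb of a coding start site, blank where a square held fewer than 20 regions. Start sites were frequent at strong, but not the strongest, ERα ranks with middling PR ranks. They were rare along the bottom edge, where PR was strongest, and less frequent along the left edge, where ERα was strongest. Within 1 row of squares, the left-edge square held 13 start sites among 73 regions, and a square further right 90 among 138.

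WT glands showed the same division for a part of these regions. Of the Y541S ERα-only regions, 49.2% and 32.6% had a peak in WT ERα replicates 1 and 2, and 7.25% and 14.6% in WT PR replicates 1 and 2. Of the PR-only regions, 51.9% and 58.4% had a peak in the WT PR libraries and 10.5% and 6.27% in the WT ERα libraries. In both classes, the 2 WT libraries of the class's own receptor were above the 2 of the other receptor. Both WT ERα libraries had a peak at 24.0% of ERα-only regions, and both WT PR libraries at 39.9% of PR-only regions. Defined with a single ERα library, ERα-only regions met both WT ERα libraries at 4.36% without replicate 1 and 5.89% without replicate 2. PR-only regions met both WT PR libraries at 23.1% and 21.9% without PR replicates 1 and 2. At a −log10 p of at least 5 the share of ERα-only regions was 48.2%. The division rarely turned round: 41 of 9103 ERα-only regions were PR-only in WT, and 55 of 26511 PR-only regions were ERα-only in WT. It was also kept in a minority, since 18.4% of ERα-only and 31.4% of PR-only regions had the same class in WT. No WT library had a peak at 35.3% and 26.8% of them. For the equal-list classes the look-up in the whole WT lists found both WT ERα libraries at 82.8% of ERα-only regions, and both WT PR libraries at 94.9% of PR-only regions. Both WT PR libraries also had a peak at 47.1% of these ERα-only regions, and both WT ERα libraries at 10.7% of these PR-only regions. All 4 WT libraries had a peak at 42.2% of the equal-list ERα-only and 10.6% of the PR-only regions. The same class in WT held for 18.1% and 53.0%. These classes were set in equal lists but looked up in whole ones, so the shares cannot tell whether the division was kept. In the whole Y541S lists, 68.1% of the equal-list ERα-only regions already had a peak in both PR libraries. The WT lists were shorter, with 64488 to 93491 peaks.

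**Figure D4:**
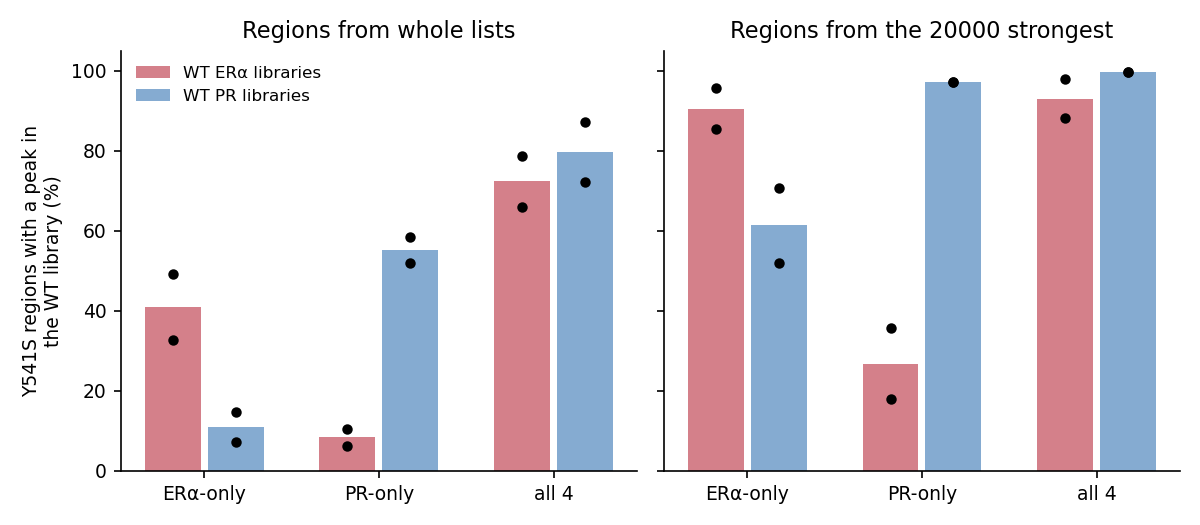
Percent of Y541S ERα-only, PR-only and all-4 regions that overlapped a peak of a WT library (vertical axis), for regions from whole lists (left) and from the 20000 strongest peaks (right). Bars are means of 2 WT libraries and points are the libraries. ERα-only regions met WT ERα peaks more often than WT PR peaks, and PR-only regions the reverse, in both panels.

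Promoter sequences differed between the classes. Of 21238 promoter windows of coding genes, each 300 bases long with 250 before and 50 after the start, 8769 (41.3%) overlapped a shared region of the whole lists, 224 (1.05%) an ERα-only and 332 (1.56%) a PR-only region. The estrogen response element was in 2 of the 224 ERα-only windows (0.893%), in 0 of the PR-only and shared windows, and in 0.0518% of all windows. These are 11 windows in all, too few to compare. The PR element was in 7 of the 332 PR-only windows (2.11%), in 0 of the 224 ERα-only windows, in 0.285% of the shared windows and in 0.443% of all windows. The hexamer AGGTCA, a single arm of the estrogen response element that also lies inside it where an A comes first, was in 22.8% of ERα-only, 16.3% of PR-only, 11.0% of shared and 14.7% of all windows. Windows of shared regions were rich in general promoter motifs. The ETS motif was in 22.9% of them against 11.6% of all windows, the Sp1 box GGGCGG in 68.0% against 46.2%, and the NRF1 motif GCGCNTGCGC in 13.0% against 6.38%. Their median GC content was 61.3% against 56.3% for all windows, and these motifs are themselves rich in G and C. ERα-only windows of the equal lists, 2372 in number, resembled them, with the ETS motif in 25.5% and a median GC content of 60.3%. Only promoters were searched, so these shares say nothing of the regions away from start sites, which were most of the ERα-only and PR-only regions.

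Individual genes of hormone action showed both shared and separate binding. A region was linked to a coding gene when its midpoint was within 50 kb of the gene, and 1 region can be linked to several genes. Over all 21887 coding genes, 44.3% had at least 1 linked ERα-only region, 70.7% a PR-only region and 76.1% a shared region. In the equal lists the shares were 45.7%, 42.1% and 20.5%. The 9692 genes with an ERα-only region became 18854 and 18246 without ERα replicates 1 and 2, 5964 at a −log10 p of at least 5 and 4960 with links within 10 kb. The 15482 genes with a PR-only region became 9637 within 10 kb. Of the genes, 8251 had both an ERα-only and a PR-only region, 1441 had ERα-only and no PR-only regions, and 7231 had the reverse.

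Pgr, a classical target of ERα, had 2 ERα-only, 1 PR-only and 4 shared regions. Its strongest region was shared, at chr9:8970080-8970944, 1.90 kb outside the gene and 70.7 kb from the closest coding start site. ERα ranked it 57 and 69 of its lists (fold 15.7 and 16.4), whereas PR ranked it 34507 and 35031 (fold 4.80 and 4.46). WT glands had the same order, with WT ERα ranks of 125 and 104 and WT PR ranks of 23515 and 13877. Greb1, an estrogen-induced growth regulator, had 1 ERα-only, 3 PR-only and 12 shared regions. The best of the shared regions lay inside the gene at chr12:16764650-16765219, with ERα ranks of 354 and 374 (fold 10.3 and 8.38) and PR ranks of 6435 and 2933 (fold 10.5 and 10.4). Esr1 itself had 3 ERα-only, 10 PR-only and 5 shared regions over a gene of 394 kb, against a median coding gene of 17.2 kb. The best PR-only region, 22.2 kb outside Esr1 at chr10:4589574-4590054, ranked 8719 and 14023 for PR, yet in WT glands it had ERα peaks at ranks 3297 and 8741. It was therefore PR-only in Y541S, with peaks in all 4 libraries in WT.

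The 3 paracrine signals are read against a median of 0 ERα-only, 2.0 PR-only and 3.0 shared regions per coding gene. Tnfsf11, which encodes RANKL, the progesterone-induced signal to neighbouring cells, had 0 ERα-only, 4 PR-only and 2 shared regions. The better shared region, 39.0 kb outside the gene at chr14:78346770-78347326, was among the strongest PR sites, with PR ranks of 98 and 214 (fold 17.4 and 16.1). ERα had ranks of 14260 and 57001 there (fold 5.42 and 3.31). Wnt4, a secreted ligand of side branching, had 1 ERα-only, 4 PR-only and 2 shared regions, and in the equal lists 0, 4 and 0. Its best PR-only region, 8.05 kb outside the gene at chr4:137307186-137307926, had PR ranks of 14383 and 14911 (fold 10.6 and 7.64). Areg, which encodes amphiregulin, the EGF receptor ligand induced by estradiol, had 1 PR-only and 1 shared region and no ERα-only region. The shared region covered its start site at chr5:91139169-91139872, and all 4 peaks were weak, with ERα fold enrichments of 3.35 and 2.95 and PR fold enrichments of 3.12 and 3.73.

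The best-ranked regions of each class lay from 4.41 to 347 kb from the closest coding start site, none within 1 kb, wherever that distance was measured. In the whole lists the best ERα-only region was at chr1:65040731-65041287, 7.55 kb from Cryge, a lens crystallin gene, with ERα ranks of 20 and 50 (fold 23.6 and 21.0). It had WT ERα ranks of 8 and 118 and no PR peak in any of the 4 PR libraries of the 2 genotypes. The next 5 were closest to Gm46240, Cdyl, Cntnap5c, Tmem270 and Creb5, ranked between 91 and 156, all with peaks in both WT ERα libraries. With the equal lists, the best was at chr6:100059605-100060474, 169 kb from Rybp, with rank 1 in both ERα libraries (−log10 p of 313 and 322). In the whole PR lists it had ranks of 33896 and 25195 (fold 4.43 and 4.68). The 3 that followed, closest to Arhgap40, Gm12248 and Parn, also had a PR peak in at least 1 whole list, at ranks from 22861 to 69246. By the worse of their ERα ranks, these 4 regions stood above every ERα-only region of the whole lists, and each carried a weak PR peak.

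The best PR-only region of the whole lists was inside Eaf2, a transcription elongation factor gene, at chr16:36821402-36822125, with PR ranks of 310 and 249 (fold 21.3 and 19.1). The next 5 lay inside or near Abo, Fgf14, Arf6, Abat and Tbc1d1, and all 6 had peaks in both WT PR libraries, at ranks from 122 to 1136. In the equal lists the best lay inside Ccdc141 at chr2:77118021-77118621, with PR ranks of 17 and 16 (fold 23.3 and 25.4) and whole-list ERα ranks of 23032 and 59648 (fold 4.56 and 3.31). Plk2, Nt5e and Eif1a followed. The best shared region was at chr4:122039109-122039901, 261 kb from Gm10573. It ranked 76 and 21 for ERα (fold 24.0 and 22.3) and 181 and 171 for PR (fold 20.3 and 18.5). The other 5 best shared regions were closest to Arid1b, Clvs2, Gatb, Nln and Irx2. All 6 best shared regions had peaks in all 4 WT libraries.

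The 5 genes with the largest excess of ERα-only regions were Zfp423, Ebf1, Akr1c14, Ctcfl and Gm40011. Zfp423, which encodes a zinc finger factor of the fat cell lineage, had 11 ERα-only, 0 PR-only and 0 shared regions over a gene of 300 kb. Of the 11, 7 lay inside the gene and 9 met a peak in at least 1 WT ERα library. The best, at chr8:87932829-87933369, ranked 120 and 164 for ERα (fold 22.3 and 19.5). Ebf1, an early B-cell factor gene also active in fat cell precursors, had 8 ERα-only, 0 PR-only and 6 shared regions over 390 kb. The other 3 genes were shorter, at 25.9 to 55.4 kb. Akr1c14, which encodes an enzyme of steroid metabolism, had 7 ERα-only and 1 PR-only region. Ctcfl and Gm40011 on chromosome 2 had 7 each, which were the same 7 regions. Of these, 6 were also linked to Pck1, which encodes the cytosolic form of phosphoenolpyruvate carboxykinase, an enzyme that fat cells use to make glycerol. The best of them, at chr2:173124117-173124797, ranked 281 and 260 for ERα (fold 18.5 and 16.7) and 28.6 kb separated it from Pck1.

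The 5 genes with the largest excess of PR-only over ERα-only regions were all long. Rbms3 had 2 ERα-only, 28 PR-only and 15 shared regions over a gene of 1057 kb, and Rere had 3, 24 and 17 over 340 kb. Foxp1, which encodes a forkhead factor, had 5, 25 and 11 over 597 kb, and all 25 PR-only regions lay inside it. Thsd4 had 4, 23 and 14 over 555 kb, and Fndc3b had 1, 18 and 12 over 295 kb. The median coding gene measured 17.2 kb, so these counts were drawn from spans many times longer. In WT PR libraries 18 of the 25 Foxp1 regions and 17 of the 18 Fndc3b regions met at least 1 peak. Restricted to the equal lists, Foxp1 had 0 ERα-only and 13 PR-only regions, and the other 4 genes had 4 to 7 PR-only regions.

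Gene lists chosen for hormone action and for the cell types of the gland were set beside all coding genes. The 16 adipocyte genes had the highest ERα-only share of the 14 lists in the whole lists: all 16 (100%) had an ERα-only region, against 44.3% of coding genes, with a median of 2.50 regions against 0. Fewer of them, 12 (75.0%), had a PR-only region, against 70.7% of coding genes. Pck1 had 6 ERα-only, 0 PR-only and 0 shared regions. Plin1, the perilipin that coats the fat droplet, had 3, 0 and 4, and Retn, which encodes resistin, 3, 0 and 5. Adipoq, the adiponectin gene, had 2, 0 and 2, with the better region at ERα ranks of 4847 and 27842 (fold 7.48 and 3.93). Pparg, the master regulator of fat cell formation, had 5, 6 and 6. Other members had more PR-only than ERα-only regions, among them Dgat2, an enzyme gene of triglyceride synthesis, with 1, 5 and 7, and Lipe, which encodes hormone-sensitive lipase, with 1, 4 and 8. Summed over the 16 genes there were 42 ERα-only and 35 PR-only links, against 16110 and 46681 over all coding genes. Of the 42, 34 (81.0%) met a peak in at least 1 WT ERα library, against 57.8% for the ERα-only regions linked to all coding genes. This was not particular to adipocyte genes. The hormone-sensing luminal list and the luminal progenitor and alveolar list had 81.8% each, from 11 regions each. In the equal lists the contrast was smaller, with 12 of 16 (75.0%) for ERα-only and 11 of 16 (68.8%) for PR-only regions, against 45.7% and 42.1%. There circadian clock genes (82.4%) and ribosomal protein genes (79.2%) had higher ERα-only shares. Adipocyte genes thus lay near ERα regions in whole-gland chromatin, and what fat cells contributed to those peaks was not tested.

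Of the progesterone paracrine list, all 14 members (100%) had a PR-only region, against 70.7% of coding genes, and 6 (42.9%) had an ERα-only region, against 44.3%. The medians, 2.0 PR-only and 0 ERα-only regions, were those of all coding genes. Fgfr2, an FGF receptor gene, had 0 ERα-only, 9 PR-only and 3 shared regions over a gene of 104 kb. Lgr5, a WNT co-receptor gene, had 0, 5 and 0 over 137 kb. When lists were of equal length, 8 of 14 members (57.1%) had a PR-only region, against 42.1% of coding genes, and 3 of 14 (21.4%) an ERα-only region, against 45.7%. Genes of the progestin and glucocorticoid response were near PR-only regions in 20 of 20 cases and near shared regions in 20 of 20. The shares over all coding genes were 70.7% and 76.1%. Of the 20, 12 had an ERα-only region, against 44.3% of coding genes. The estrogen response, cell cycle, circadian clock and ribosomal protein lists were also at 100% for shared regions. In the equal lists 13 of the 20 (65.0%) had a shared region, against 20.5% of coding genes. There 15 (75.0%) had an ERα-only and 16 (80.0%) a PR-only region, against 45.7% and 42.1%, so the list was raised for both receptors. Zbtb16, the PLZF gene induced by progestins, had 3 ERα-only, 13 PR-only and 15 shared regions over a gene of 184 kb. Tsc22d3, which encodes the glucocorticoid-induced leucine zipper protein, had 1, 7 and 7, and Fkbp5, a chaperone of steroid receptors, 1, 6 and 9. Per1 is in this list and in the circadian one, and Stat5a in this list and the alveolar one.

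Estrogen response genes had both kinds of region more often than all coding genes did, of which 44.3% had an ERα-only and 70.7% a PR-only region. Of 28 members, 16 (57.1%) had an ERα-only region, 26 (92.9%) a PR-only region and 28 (100%) a shared region. A shared region was linked to 76.1% of coding genes. Their medians were 1.0, 2.0 and 3.0 regions, and those of all coding genes 0, 2.0 and 3.0. Raised shares were not particular to this list. In the whole lists every gene list was above all coding genes for PR-only regions, the lowest at 75.0%. Most gene lists were also above all coding genes for ERα-only regions. Rara, a retinoic acid receptor gene, had 2 ERα-only, 9 PR-only and 5 shared regions, and Myb had 0, 8 and 5. Siah2, a ubiquitin ligase gene, had 3, 4 and 1. With the equal lists, 18 (64.3%) had an ERα-only and 15 (53.6%) a PR-only region, against 45.7% and 42.1%. Hormone-sensing luminal genes had PR-only regions in 15 of 16 cases (93.8%) and ERα-only regions in 8 of 16, with a median of 4.0 PR-only regions against 2.0 for all coding genes. Krt8, a luminal keratin, had 1 ERα-only, 9 PR-only and 6 shared regions, and Wfdc2 had 1, 8 and 3. None of the 9 PR-only regions linked to Krt8 lay inside it, and the best was 29.7 kb outside. Of these 9, 7 met a peak in at least 1 WT PR library and 3 in both. Foxa1, a forkhead pioneer factor of luminal cells named here after its values were seen, had 0, 5 and 1.

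The other lists on cell types and on regulators were as follows in the whole lists, where 44.3% of coding genes had an ERα-only and 70.7% a PR-only region. Luminal progenitor and alveolar genes had ERα-only regions in 9 of 17 and PR-only regions in 14 of 17 cases, and Elf5, the regulator of alveolar fate, had 2 ERα-only, 4 PR-only and 6 shared regions. Basal and myoepithelial genes had them in 11 (73.3%) and 13 (86.7%) of 15 cases. Mylk, the myosin light chain kinase of contractile cells, had 2, 11 and 4 over a gene of 257 kb. Fibroblast and endothelial genes had them in 10 and 15 of 16 cases. Flt1, a VEGF receptor gene, had 1, 11 and 4 over a gene of 165 kb. Immune genes had them in 6 and 12 of 16 cases, the lowest ERα-only share of the 14 lists at 37.5%. With the equal lists 8 of 16 immune genes had an ERα-only region, close to the share of 45.7% over all coding genes. The progesterone paracrine list was lowest there, at 21.4%. H2-Aa, of the class II antigen complex, had 4 ERα-only, 1 PR-only and 5 shared regions in the whole lists. Cell cycle genes had them in 13 and 17 of 20 cases. Nuclear receptor genes, with a median length of 68.7 kb, had them in 19 (76.0%) and 21 (84.0%) of 25 cases. Coregulator and pioneer factor genes, with a median length of 73.2 kb, had them in 12 and 17 of 20 cases.

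Circadian clock genes were near regions of both receptors. Of 17 members, 12 (70.6%) had an ERα-only, 16 (94.1%) a PR-only and 17 (100%) a shared region. The shares over all coding genes were 44.3%, 70.7% and 76.1%. The estrogen response, progestin and glucocorticoid response, cell cycle and ribosomal protein lists were also at 100% for shared regions. In the equal lists 11 of 17 (64.7%) had a shared region, against 20.5% of coding genes. Rora, whose gene spans 735 kb, had 9 ERα-only, 12 PR-only and 11 shared regions, and Arntl, which encodes the clock activator BMAL1, had 1, 9 and 10. Per2, a clock repressor, had 3, 3 and 9. Genes of cytosolic ribosomal proteins depended on which lists were used. In the whole lists 10 of 24 (41.7%) had an ERα-only region and 24 of 24 a shared one, against 44.3% and 76.1% of coding genes. Among the strongest peaks, 19 of 24 (79.2%) had an ERα-only region, against 45.7% of coding genes.

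**Figure D5:**
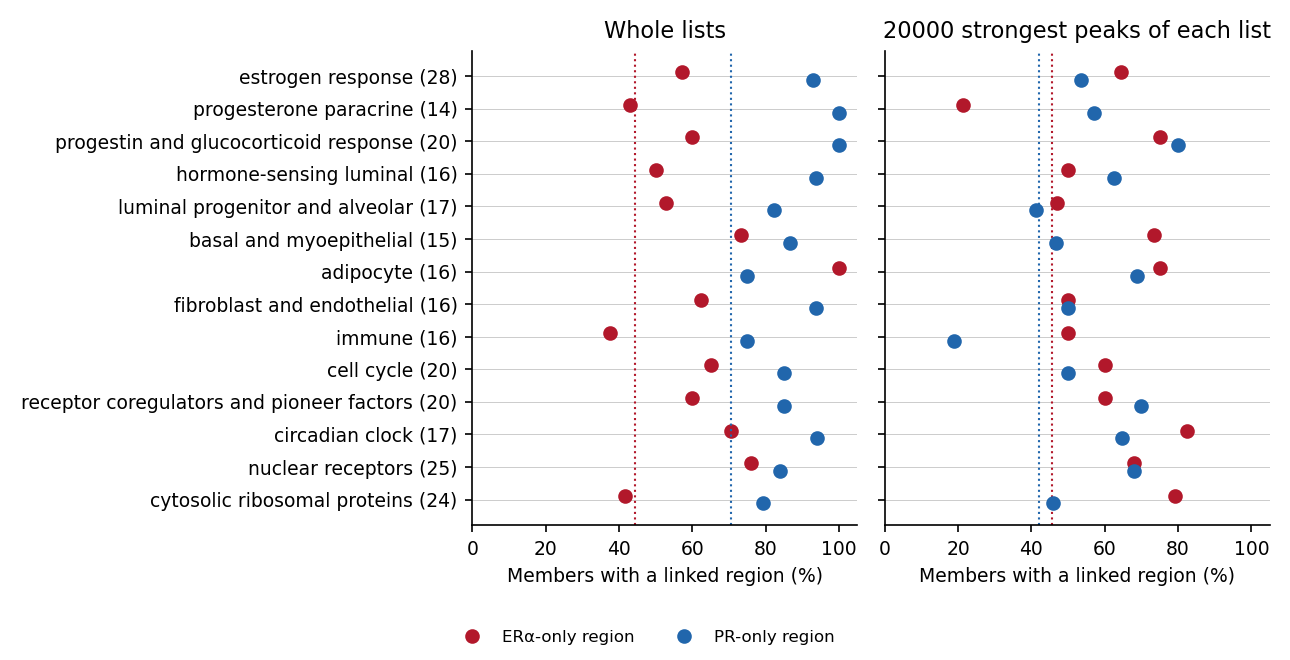
Percent of the members of each gene list (number of members in brackets) with at least 1 linked ERα-only or PR-only region (horizontal axis), in the whole lists (left) and the 20000 strongest peaks (right). Dotted lines give the share of all coding genes for each class, 44.3% and 70.7% on the left and 45.7% and 42.1% on the right. The adipocyte list is the only one at 100% for ERα-only regions, and 2 lists are at 100% for PR-only regions.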

How the data were processed

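ERα and PR ChIP-seq was read from 8 peak lists, 1 per library, with 2 libraries for each receptor and genotype. Coordinates are in mm10, the build in the submitters' processing notes. Which aligner, peak caller and control were used is not given in the sources used here. Chromatin was sheared to 300 to 500 bp and 30 µg was precipitated with 4 µg of antibody, per the labels' protocols. Each deposited peak has a score, a summit fold enrichment (the ratio of coverage to what was expected locally), a −log10 p, a −log10 q and a summit offset in bp (another value, neither score nor ratio), all the authors' own. They were used only to rank, describe or filter peaks within a list, and the peaks were not normalised across libraries.

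The fold and −log10 p gave back whole-number summit coverage with a tolerance of 0.0001, and the 0.001 quantile of its expectation is the background coverage. Start sites came from the RefSeq promoter table and gene spans from the RefSeq gene table (GRCm38.p6), with 21263 start sites and 21887 coding genes. Start sites replaced the planned gene ends, because that table gives strand. Chromosome 18, with 3.21 to 3.30% of the peaks of a library, was not used for positions. Libraries were compared with two-sided exact permutation tests (6 arrangements, or 36 within genotype). The labels leave out whether libraries with the same number share chromatin, and if they do the tests treat paired samples as independent. Intervals on shares (95%, Wilson) cover counting error and nothing else.

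The members and lists were chosen with earlier results of these data known. The 14 gene lists were matched by symbol or synonym. Named genes were 6 anchors (Esr1, Pgr, Greb1, Areg, Tnfsf11 and Wnt4), the closest genes of the best-ranked regions of each class, the 5 genes with the largest excess of either class, and, per list, the 3 members at most with the largest numbers of either class. Plin1, Retn, Adipoq, Lipe, Per1 and Foxa1 fall outside that rule and were chosen after their values were seen, and some genes that the rule names are not reported here. Promoters were printed by the rank of their region. Alternatives were stricter thresholds, the equal lists, coverage scaled to the shallowest library, summit-centred regions, other distances, a replicate block and leaving out each library. Merging, classes and recovered coverage were tested on simulated data. Python 3.11.15, numpy 2.4.6, pandas 2.3.3 and scipy 1.17.1 were used.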

Additional observations from a re-analysis of the deposited data

Results flagged for a closer look

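The share of peaks outside genes (neither inside a coding gene nor within 1 kb of a start site) went in different directions in the 2 genotypes in the whole lists. In Y541S glands ERα was above PR by 0.614 percentage points, 0.0198 for replicate 1 and 1.21 for replicate 2. In WT glands ERα was below PR, at -2.36 points, with -2.18 and -2.55. The Y541S minus WT difference of these contrasts was 2.98 points (exact permutation p = 0.0556, the smallest that 36 arrangements allow). Among the 20000 strongest peaks the difference between the genotypes was -1.16 points (exact permutation p = 0.889).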

How the results depend on the processing

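Each of 2 libraries decides much of every class, and a region missing from a list can hold signal under its threshold. The number of ERα-only regions was 4339 at a −log10 p of at least 5 and ran from 12627 to 58884 when 1 library was left out. PR-only regions numbered 9137 in the equal lists and 32043 to 57705 without 1 library. Shared regions numbered 15549 at a −log10 p of at least 5 and 2473 in the equal lists. The share of ERα-only regions at start sites was 5.27% at a −log10 p of at least 5, 32.0% in the equal lists, 8.36% with regions of 100 bp either side of the summit and 10.9% within 5 kb. The PR-only share was 2.72%, 1.69%, 3.40% and 10.9% under those 4 settings. Without 1 library they ran from 3.59% to 7.62% and from 2.85% to 3.80%. Both-ERα regions found in both PR libraries were 67.9% at a −log10 p of at least 5, 66.4% at a −log10 q of at least 1.3, 20.6% in the equal lists, 63.2% with scaled coverage, 55.2% around summits and 31.0% to 70.4% without 1 library. The reverse share was 28.3%, 34.2%, 17.3%, unmoved by scaling, 31.8%, and 26.8% to 54.6%. A setting chosen after seeing the data, scaled coverage with a −log10 p of at least 5, gave 2575 ERα-only and 10294 shared regions, shares of 69.8% and 21.1%, and 3.11% of PR-only regions at start sites.

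The order of these shares turned without either ERα replicate. Direction also changed for the following differences. ERα minus PR in log2 peak number was 0.07 without PR replicate 1 (-0.10 to 0.07 over the libraries left out). At start sites it was -0.798 points within 5 kb and -0.116 without PR replicate 1 (-0.116 to 1.59 over the libraries left out). Outside genes it was -1.88 at a −log10 p of at least 5, -0.400 at a −log10 q of at least 1.3, -5.82 in the equal lists and -3.29 with scaled coverage and a −log10 p of at least 5. The width difference became 17.5 bp under that last setting. The cause was not tested. With the replicate block (ERα and PR of the same number compared), the width difference of -100 bp had an exact permutation p of 0.50, the smallest possible, and no call changed. Nothing in the labels says that the numbers pair the libraries.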
